A study of Homo sapiens with 24 samples.

Results

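A set of 10 keratin genes were followed across HCC1806 and MDA-MB-231 cells, 2 established lines of triple-negative breast cancer (a breast cancer lacking oestrogen receptor, progesterone receptor and HER2). They were the keratins of basal and stratified epithelium, KRT5, KRT14, KRT6A, KRT6B, KRT17 and KRT13, and the keratins of simple or luminal epithelium, KRT7, KRT8, KRT18 and KRT19. Each was taken by its gene name, which gave 10 of the 29744 genes in the tables. In each line, populations that had undergone whole-genome doubling by cell fusion, by mitotic slippage (exit from mitosis without division) or by cytokinesis failure (mitosis without separation of the daughter cells) were compared with the parental aneuploid population, the control. The doubled cells had been sorted and expanded, all populations were grown for 48 hours after seeding, and 3 biological replicates were read in each of the 8 groups. Each route gave a single doubled population per line; a route and its population therefore cannot be told apart, and a p-value here covers the spread between replicates of a population. HCC1806 is of basal epithelial character and MDA-MB-231 of mesenchymal character.

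Keratins are the intermediate filament proteins of epithelial cells and assemble as obligate pairs of a type I and a type II chain. KRT5 (type II) and KRT14 (type I) form the pair of basal cells, KRT6A, KRT6B and KRT17 are induced in wounded or hyperproliferative epithelium, and KRT13 (type I) pairs with KRT4 (type II) in the suprabasal layers of stratified epithelia that do not cornify. KRT8 (type II) and KRT18 (type I) form the pair of simple epithelium, joined there by KRT7 (type II) and KRT19 (type I); in the breast, basal and luminal keratins are used to tell the myoepithelial layer and basal-like tumours from luminal cells.

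The type II members lie on chromosome 12 together with KRT18, and the other type I members on chromosome 17 (RefSeq, GRCh38.p14). The promoter of KRT5 is shown because KRT5 separated the lines, with 1135 to 1934 counts in each HCC1806 library and at most 1 in any MDA-MB-231 library. KRT5 spans chr12:52514575-52520394 on the minus strand. The 250 bases before its start (chr12:52520395-52520644, minus strand, written 5′ to 3′, RefSeq) are in lower case, with ATAAAA in capitals.
KRT5 promoter: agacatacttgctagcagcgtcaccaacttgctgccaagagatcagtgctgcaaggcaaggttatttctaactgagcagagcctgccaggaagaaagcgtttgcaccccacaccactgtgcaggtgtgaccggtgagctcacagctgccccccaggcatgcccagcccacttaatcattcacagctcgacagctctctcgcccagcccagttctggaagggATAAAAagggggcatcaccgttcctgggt

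The capitals begin 29 bases before the start. ATAAAA was searched for after the sequence had been read and can overlap TATAAA. It occurs on either strand in 16% of 35116 RefSeq promoter windows of the same table (250 bases before to 50 after a start). TATAAA (11.5% of windows), TGANTCA (the AP-1 motif, 7.71%) and GGGCGG (the GC box, 45%) were searched for on both strands and had no match in the KRT5 window. The full window of KRT5 held 7 CpG dinucleotides, against a median of 14 over all windows. Of the 10 members, 2 had a window in the table, KRT5 and KRT8.

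Library totals ran from 3060622 to 4030297 counts in HCC1806 and from 2455707 to 3837957 in MDA-MB-231. In MDA-MB-231, the third slippage replicate and the first cytokinesis failure replicate differed from their groups beyond the usual spread: chi-square over its degrees of freedom was 2.34 to 2.55 when either was paired with its group, and 1.29 to 1.92 for all other replicate pairs. Some listed markers separated the lines. VIM, the mesenchymal intermediate filament, did not exceed 7 counts in HCC1806 libraries. The cadherins CDH1 and CDH3 had at most 2 counts in any MDA-MB-231 library. Against this, CDH2, a cadherin on the mesenchymal list, had 79 to 170 counts in HCC1806 libraries and 1 to 5 in MDA-MB-231 libraries. On the epithelial list, EPCAM had 35 to 66 counts in MDA-MB-231 libraries (1671 to 2353 in HCC1806), and KRT8, KRT18 and KRT19 were present in both lines. On the mesenchymal list, FN1 had 27 to 73 counts in HCC1806 libraries, and SPARC had at most 4 in any library of either line.

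Apart from KRT6B, the basal members were HCC1806 transcripts. Over 12 libraries, KRT5 had 17637 counts in HCC1806 and 1 count in MDA-MB-231. KRT14, KRT6A and KRT13 had 0 counts in all 12 MDA-MB-231 libraries, and KRT17 had 2. KRT6B, a close relative of KRT6A, was close to silent in both lines, with 4 counts in all of HCC1806 and 1 in all of MDA-MB-231. Against a floor of 3 counts per MDA-MB-231 control library (0.831 CPM, counts scaled to the library total), the controls of HCC1806 had at least 197-fold more KRT14, 347-fold more KRT6A, 122-fold more KRT17 and 379-fold more KRT13. KRT4, the type II partner of KRT13 and no member here, was also at 0 in MDA-MB-231 and at least 687-fold higher in the HCC1806 controls. Such bounds cover counting error only. KRT15, a keratin outside the set, had 6 to 22 counts in each MDA-MB-231 library and 30 to 67 in each HCC1806 library. Others outside the set were well counted in both lines. KRT10 had 311 to 622 counts in each MDA-MB-231 library and 448 to 753 in each HCC1806 library. KRT80 had 258 to 400 and 167 to 309, in the same order.

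All 4 simple keratins were transcribed in both lines, at higher levels in HCC1806. Between the controls, HCC1806 minus MDA-MB-231 on the log2 scale, KRT19 differed most (2.01 ± 0.044, standard error), then KRT7 (1.53 ± 0.044), KRT8 (1.06 ± 0.053) and KRT18 (0.98 ± 0.039). All 4 were called by edgeR's quasi-likelihood test, in a comparison where 76.2% of 12563 genes were, and where the median of all genes shifted by -0.12 on log2(TPM + 1). A call means here an adjusted p below 0.05, after Benjamini-Hochberg adjustment over all genes tested, and fold changes are log2 values with their standard error after ±.

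Levels of different keratins were set side by side in TPM (transcript abundance scaled for length and library total). It divides by transcript length although a 3′ tag is read once per transcript. In fused HCC1806 cells, KRT7 led with 977 ± 36.4 TPM (SD, n = 3), followed by KRT19 at 874, KRT18 at 681, KRT8 at 315, KRT13 at 230.3, KRT5 at 159.7, KRT6A at 101, KRT14 at 62.4 and KRT17 at 45.2 TPM, and no neighbours in this order overlapped. Slippage cells had the same order, with KRT7 at 955, KRT19 at 827, KRT18 at 779.5, KRT8 at 372, KRT13 at 242, KRT5 at 156, KRT6A at 73.1, KRT14 at 61.2 and KRT17 at 57.1 TPM, of which KRT14 and KRT17 overlapped. In the cytokinesis failure population, KRT19 (1071 ± 27.9 TPM) and KRT7 (1066 ± 25.2 TPM) shared the top. KRT14, at 28.7 TPM, was there the lowest of the 9 expressed members, below KRT6A at 43.3 and KRT17 at 49.1 TPM, which overlapped each other. The levels between were 818 TPM for KRT18, 389.9 for KRT8, 260.3 for KRT13 and 195 for KRT5. In HCC1806 controls the order was KRT7 (886 ± 27.2 TPM), KRT18 (813 ± 26.4), KRT19 (797 ± 47), KRT8 (360.0 ± 19.6), KRT13 (179 ± 11.2), KRT5 (169 ± 5.51), KRT6A (107 ± 4.33), KRT14 (96.6 ± 8.45) and KRT17 (62.4 ± 3.64). The control libraries of KRT18 and KRT19, of KRT13 and KRT5, and of KRT6A and KRT14 overlapped, so these neighbours were not apart. Without the division by length, in CPM, KRT7 led in all 4 HCC1806 populations. After cytokinesis failure its libraries (1704 to 1792 CPM) lay above those of KRT19 (1449 to 1499 CPM), and those of KRT6A (100.1 to 121 CPM) above those of KRT17 (68.0 to 79.8 CPM). The order of KRT5 and KRT13 depended on this choice. In CPM they overlapped after fusion (384 to 406 and 388 to 409.9) and cytokinesis failure (439.7 to 476 and 391 to 443). KRT13 was above KRT5 after slippage (397 to 439 against 360.5 to 395), and KRT5 lay above KRT13 in controls (392 to 421 against 294 to 314).

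In TPM, all 4 MDA-MB-231 populations had the order KRT18, KRT7, KRT19 and KRT8, at lower levels than in HCC1806. Fused cells had 392 TPM of KRT18, 213 of KRT7, 189 of KRT19 and 139.8 of KRT8. Slippage cells had 367 TPM of KRT18, 268 of KRT7, 239 of KRT19 and 171 of KRT8. In cells from cytokinesis failure, KRT18 (384 ± 21.8 TPM) was above KRT7 (244 ± 29.3 TPM) and KRT19 (216 ± 15.7 TPM), whose libraries overlapped, and KRT8 stood at 184 ± 6.07 TPM. Controls had 462 ± 12.9 TPM of KRT18, 342 ± 14.6 of KRT7, 221 ± 10.8 of KRT19 and 192 ± 2.39 of KRT8. Apart from that overlap, neighbours in these orders did not overlap. In CPM, KRT18 and KRT7 still led, but KRT8 and KRT19 overlapped after fusion (248 to 295 and 277 to 301 CPM) and slippage (272 to 333 and 330.2 to 351 CPM). KRT8 lay above KRT19 after cytokinesis failure (325 to 327 against 287 to 309.6 CPM) and in controls (334 to 352 against 291 to 319 CPM).

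**Figure D1:**
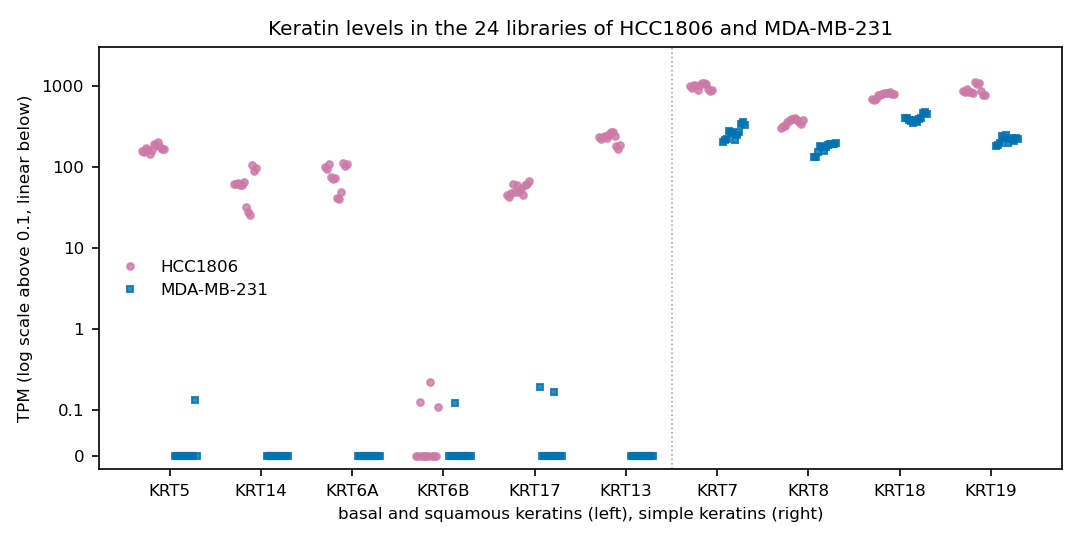
Levels of the 10 keratins in TPM in each of the 24 libraries (axis logarithmic above 0.1 and linear below), with the libraries of each line in the order fusion, slippage, cytokinesis failure and control. The 4 simple keratins are present in both lines; KRT5, KRT14, KRT6A, KRT17 and KRT13 are present in HCC1806 and at or near 0 in MDA-MB-231, and KRT6B is at or near 0 in both.

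In HCC1806, KRT14 fell in all 3 doubled populations, while its partner KRT5 was not called lower in any. KRT14, the type I chain of the basal pair, had 104, 105 and 104 CPM in fusion libraries, 96.7, 101 and 106 CPM in slippage libraries and 50.1, 44.2 and 40.4 CPM in cytokinesis failure libraries, against 164, 151 and 154 CPM in control libraries. Fusion and slippage libraries overlapped each other, cytokinesis failure libraries lay below both, and no doubled library reached a control. The log2 fold change of KRT14 against control was -0.59 ± 0.064 after fusion (edgeR adjusted p = 9.57e-12), -0.63 ± 0.064 after slippage (adjusted p = 2.75e-12) and -1.80 ± 0.072 after cytokinesis failure (adjusted p = 4.13e-37). KRT5, its type II partner, had 393, 384 and 406 CPM in fusion libraries, 395, 360.5 and 393 CPM in slippage libraries and 439.7, 439.9 and 476 CPM in cytokinesis failure libraries, against 404, 421 and 392 CPM in control libraries. Fusion and slippage overlapped the controls, while the 3 cytokinesis failure libraries were above every other one. KRT5 rose there by 0.16 ± 0.043 (edgeR adjusted p = 0.00472), a call that was lost without cytokinesis failure replicate 3 (adjusted p = 0.0847). KRT5 stood at -0.04 after fusion, with a 95% interval of -0.14 to 0.06, and at -0.08 after slippage, with an interval of -0.18 to 0.02. These are bulk libraries, in which fewer cells with a transcript and less of it per cell cannot be told apart.

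The stress keratins KRT6A and KRT17 followed different patterns over the routes. KRT6A, a type II keratin induced in wounds, had 265, 257 and 277 CPM in fusion libraries, 193, 189.9 and 193 CPM in slippage libraries and 101, 100.1 and 121 CPM in cytokinesis failure libraries, against 273, 277 and 277 CPM in control libraries. The fusion libraries reached the control level, and the slippage and cytokinesis failure libraries formed 2 lower, separate groups. KRT6A fell by 0.52 ± 0.053 after slippage (edgeR adjusted p = 3.56e-12) and by 1.36 ± 0.056 after cytokinesis failure (adjusted p = 4.43e-36), and stood at -0.05 ± 0.052 after fusion, which was not called. KRT17, a type I keratin induced beside it, had 71.5, 70.3 and 74.2 CPM in fusion libraries, 97.5, 79.4 and 94 CPM in slippage libraries and 72.7, 79.8 and 68 CPM in cytokinesis failure libraries, against 87.9, 101 and 102 CPM in control libraries. Here the slippage libraries overlapped the controls, and the libraries of the other 2 routes lay below every control. KRT17 fell by 0.43 ± 0.077 after fusion (edgeR adjusted p = 2.05e-05) and by 0.40 ± 0.074 after cytokinesis failure (adjusted p = 2.71e-05), and stood at -0.09 ± 0.073 after slippage, which was not called.

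KRT13, the suprabasal type I keratin, moved the other way. It had 409.9, 388 and 399 CPM in fusion libraries, 411, 397 and 439 CPM in slippage libraries and 436, 443 and 391 CPM in cytokinesis failure libraries, against 294, 295 and 314 CPM in control libraries. The 3 doubled populations overlapped one another and were all above the controls. KRT13 rose by 0.41 ± 0.046 after fusion (edgeR adjusted p = 5.41e-11), 0.46 ± 0.046 after slippage (adjusted p = 1.36e-12) and 0.49 ± 0.045 after cytokinesis failure (adjusted p = 3.36e-15). KRT4, its type II partner, did not share this pattern: it had 513, 505 and 527 CPM after fusion, 609, 593 and 605 CPM after slippage and 703, 706 and 696 CPM after cytokinesis failure, against 553, 556 and 526 CPM in controls. KRT4 rose by 0.15 ± 0.038 after slippage (edgeR adjusted p = 0.013) and by 0.37 ± 0.037 after cytokinesis failure (adjusted p = 1.98e-13), and was not called after fusion (-0.08 ± 0.038).

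**Figure D2:**
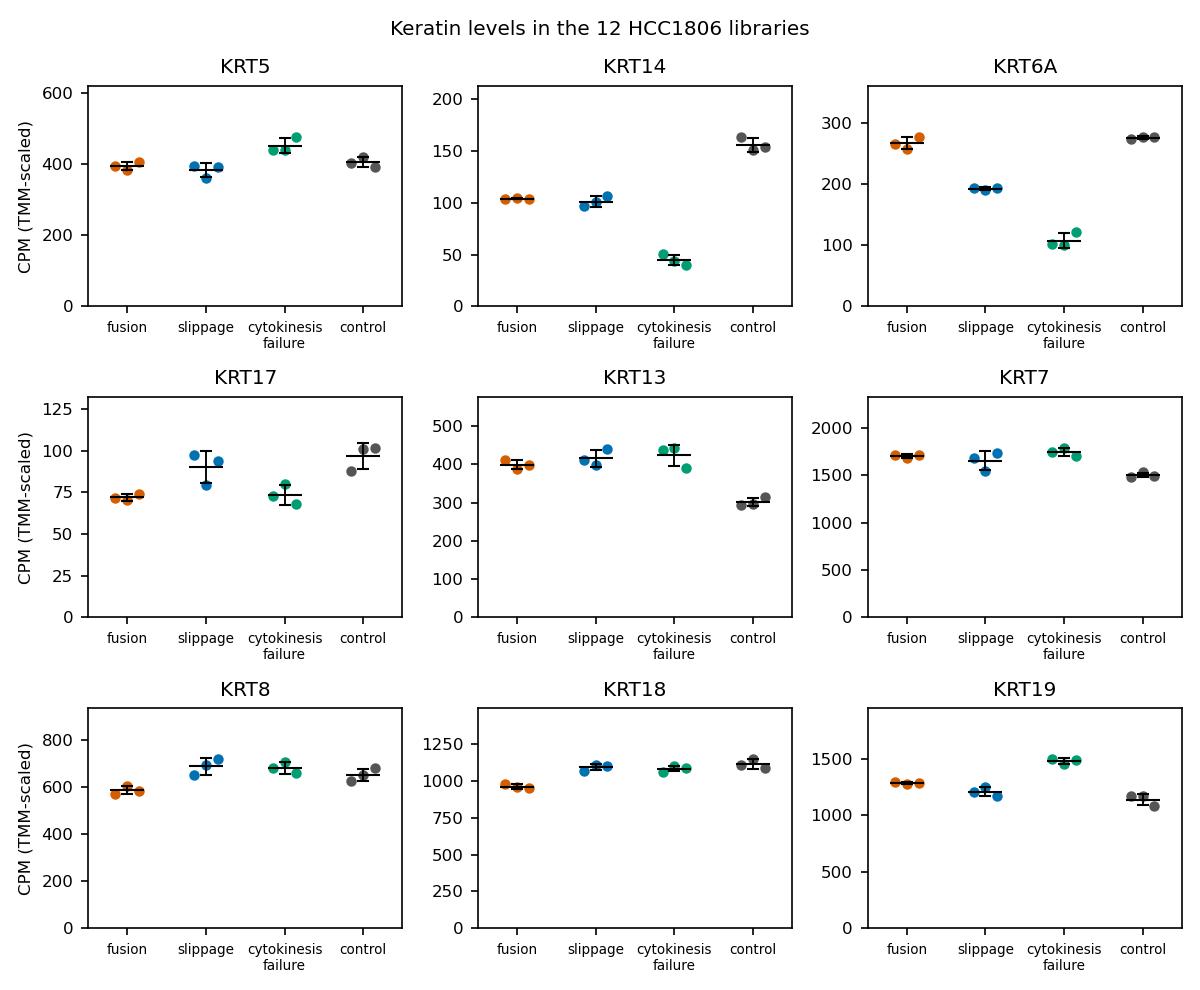
TMM-scaled CPM of the 9 expressed keratins in the 12 HCC1806 libraries, with points for libraries, horizontal lines for group means and bars for the SD (n = 3). KRT14 is lower in all 3 doubled populations than in control, KRT6A is lower after slippage and lowest after cytokinesis failure, and KRT13 is higher in all 3.

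Of the simple keratins in HCC1806, KRT7 rose after each route, KRT19 rose after fusion and cytokinesis failure, and KRT8 and KRT18 fell after fusion. KRT7 had 1721, 1679.9 and 1719.8 CPM in fusion libraries, 1679.8, 1547 and 1742 CPM in slippage libraries and 1750.0, 1792 and 1704 CPM in cytokinesis failure libraries, against 1484, 1532 and 1497 CPM in control libraries. No doubled library overlapped the controls, though slippage replicate 2 came close to them. KRT7 rose by 0.18 ± 0.033 after fusion (edgeR adjusted p = 2.57e-05), 0.14 ± 0.033 after slippage (adjusted p = 0.00541) and 0.22 ± 0.033 after cytokinesis failure (adjusted p = 2.27e-07). For slippage, KRT7 missed the threshold on log2(TPM + 1) (adjusted p = 0.417) and without any of 3 libraries, namely control replicate 1 (adjusted p = 0.0571), slippage replicate 1 (adjusted p = 0.0613) or slippage replicate 3 (adjusted p = 0.183). For fusion it missed the threshold on log2(TPM + 1) (adjusted p = 0.124). In the GENCODE annotation, the locus of KRT7 overlaps KRT86 on the same strand (chr12:52249300-52252186), including the 3′ end of KRT7. There the pseudogene KRT87P also holds that end, on the opposite strand. RefSeq places the end of KRT7 further on, at chr12:52255853, outside both overlaps. In the reference transcripts, 0 of 401 windows of 100 bases at the 3′ end of KRT7 occurred exactly in a transcript of another gene. The annotation of the submitters is not given, so the share of reads given to each stays uncertain. KRT86 had at most 2.12 TPM in any HCC1806 library and at most 5.37 TPM in any MDA-MB-231 library.

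KRT19, the smallest type I keratin, had 1291, 1275 and 1289 CPM in fusion libraries, 1206, 1246 and 1167 CPM in slippage libraries and 1498, 1449 and 1485 CPM in cytokinesis failure libraries, against 1167, 1166 and 1081 CPM in control libraries. The cytokinesis failure libraries were highest and the fusion libraries next, and the lowest slippage library was level with the highest control. KRT19 rose by 0.18 ± 0.034 after fusion (edgeR adjusted p = 6.25e-05) and by 0.38 ± 0.033 after cytokinesis failure (adjusted p = 3.69e-16), and stood at 0.08 ± 0.034 after slippage (adjusted p = 0.189). The fusion difference missed the threshold on log2(TPM + 1) (adjusted p = 0.0971).

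KRT18, the type I chain of the simple pair, had 979, 955 and 948 CPM in fusion libraries, 1068, 1108 and 1097 CPM in slippage libraries and 1063, 1101 and 1085 CPM in cytokinesis failure libraries, against 1109, 1149 and 1084 CPM in control libraries. KRT8, its type II partner, had 571, 606 and 585 CPM after fusion, 649.5, 693 and 719.9 CPM after slippage and 680.5, 706 and 658 CPM after cytokinesis failure, against 625, 649 and 679.7 CPM in controls. For both genes the fusion libraries lay below all others, and the other 2 routes overlapped the controls. After fusion, KRT18 fell by 0.21 ± 0.034 (edgeR adjusted p = 1.32e-06) and KRT8 by 0.15 ± 0.039 (adjusted p = 0.00496); for KRT8 this rested on control replicate 3 (without it, adjusted p = 0.0751) and on fusion replicate 1 (without it, adjusted p = 0.0654). After cytokinesis failure KRT8 stood at 0.07 (95% interval -0.02 to 0.15) and KRT18 at -0.04 (95% interval -0.12 to 0.04), neither called. In the GENCODE annotation, the loci of KRT8 and KRT18 overlap on opposite strands over 1084 bases that hold neither 3′ end.

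Counted over the 9 members that passed the filter on low counts in HCC1806, 3 rose and 4 fell after fusion, where 10.9% of 11467 genes were called (5.33% higher and 5.55% lower). After slippage 2 rose and 2 fell, where 3.33% of genes were called (1.53% higher and 1.81% lower). After cytokinesis failure 4 rose and 3 fell, where 17% were called (8.37% higher and 8.63% lower). The members' median log2 fold change was -0.05 after fusion, -0.03 after slippage and 0.07 after cytokinesis failure, and that of all genes tested lay between -0.0031 and 0.0018. Of all genes, 611 were higher and 636 lower after fusion (234 and 472 on log2(TPM + 1)), 175 higher and 207 lower after slippage (21 and 67), and 960 higher and 990 lower after cytokinesis failure (853 and 453). The 3 comparisons share their control libraries.

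**Figure D3:**
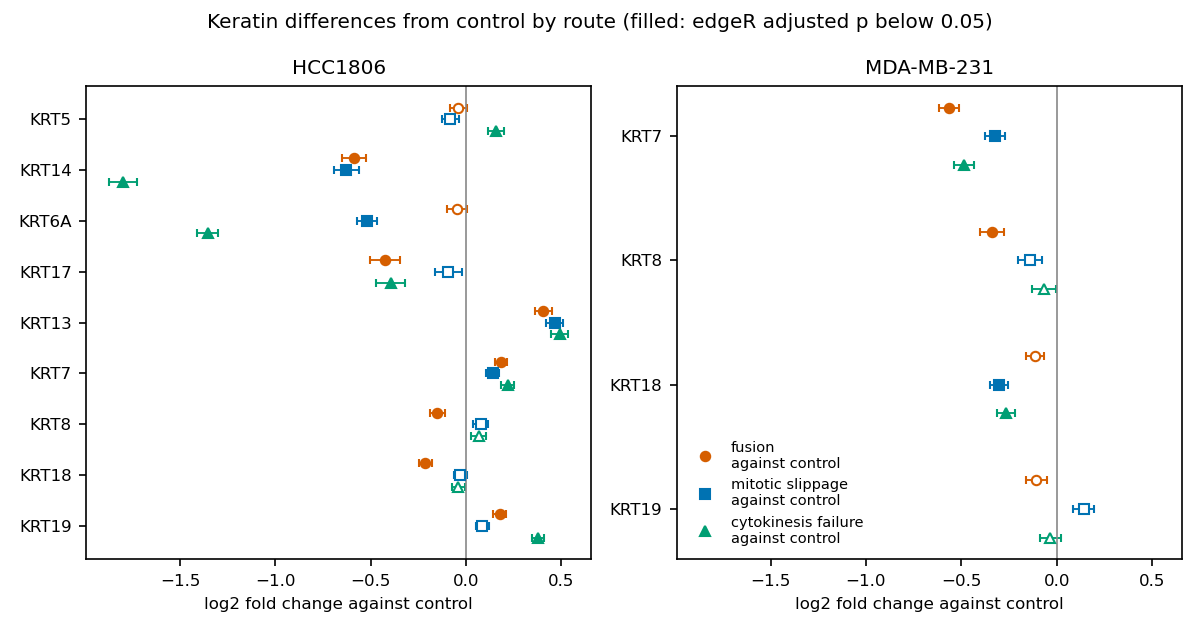
Log2 fold change against control for each expressed keratin, by route and line, with bars for the standard error and filled symbols for an edgeR adjusted p below 0.05. In HCC1806 the changes run from -1.80 (KRT14 after cytokinesis failure) to 0.49 (KRT13 after cytokinesis failure); in MDA-MB-231 the called ones are all negative.

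Between the routes in HCC1806, cytokinesis failure differed from both others in KRT14, KRT6A, KRT5 and KRT19. Cells from cytokinesis failure had less KRT14 than fused cells (-1.21 ± 0.077) and slippage cells (-1.17 ± 0.078), less KRT6A (-1.31 ± 0.057 and -0.84 ± 0.059), more KRT5 (0.20, edgeR adjusted p = 0.00027, and 0.24, adjusted p = 3.19e-05) and more KRT19 (0.20, adjusted p = 1.54e-06, and 0.29, adjusted p = 5.84e-11). KRT8 (0.22, edgeR adjusted p = 1.14e-05) and KRT18 (0.17, adjusted p = 4.96e-05) were higher after cytokinesis failure than after fusion. KRT17 was lower after cytokinesis failure than after slippage (-0.30 ± 0.075, edgeR adjusted p = 0.00515), with overlapping libraries; that call was lost with DESeq2 (adjusted p = 0.0664), on log2(TPM + 1) (adjusted p = 0.21), without slippage replicate 1 (adjusted p = 0.0809) and without cytokinesis failure replicate 3 (adjusted p = 0.0631). Fused cells had more KRT6A than slippage cells (0.47 ± 0.054, edgeR adjusted p = 6.05e-11) and less KRT17 (-0.33 ± 0.078, adjusted p = 0.00154), KRT8 (-0.23 ± 0.039, adjusted p = 9.72e-06) and KRT18 (-0.18 ± 0.034, adjusted p = 4.1e-05). KRT14 did not separate these 2 populations (0.04, 95% interval -0.12 to 0.20). The shares of all genes called were 17.9% for cytokinesis failure against fusion, 6.8% for cytokinesis failure against slippage and 9.23% for fusion against slippage. On log2(TPM + 1), 1168 genes were higher and 328 lower after cytokinesis failure than after fusion, against 1027 and 1028 by edgeR, and 281 higher and 91 lower than after slippage, against 312 and 468 by edgeR. Calls gained by leaving out a library were those of KRT19 in fusion against slippage (without slippage replicate 2, adjusted p = 0.0486), KRT13 in cytokinesis failure against fusion (without cytokinesis failure replicate 3, adjusted p = 0.0333) and KRT7 in cytokinesis failure against slippage (without slippage replicate 3, adjusted p = 0.0424), all by edgeR.

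The balance of type II and type I keratins is given as a description without a test. The log2 ratio of KRT5 to KRT14 in TPM was 1.35 ± 0.046 (SD, n = 3) after fusion, 1.35 ± 0.10 after slippage and 2.77 ± 0.21 after cytokinesis failure, against 0.81 ± 0.092 in controls, and no doubled library overlapped a control. The log2 ratio of KRT6A to KRT17 was 1.15 ± 0.016 after fusion, 0.36 ± 0.14 after slippage and -0.19 ± 0.26 after cytokinesis failure, against 0.78 ± 0.10 in controls, so that fusion lay above the controls and the other 2 routes below. The log2 ratio of KRT8 to KRT18 overlapped between each route and control, at -1.11 after fusion, -1.07 after slippage and -1.07 after cytokinesis failure, against -1.18 in controls. The log2 ratio of KRT4 to KRT13 was -0.030 after fusion, 0.14 after slippage and 0.33 after cytokinesis failure, against 0.46 in controls; cytokinesis failure overlapped the controls and the other 2 routes lay below them. The log2 ratio of KRT7 to KRT19 was 0.16 after fusion, 0.21 after slippage and -0.0069 after cytokinesis failure, against 0.15 in controls, with the cytokinesis failure libraries below every control. In CPM, without the division by length, each ratio kept these overlaps but its level moved, and with it the sign of some. KRT6A over KRT17 was then 0.55 after cytokinesis failure, against 1.51 in controls. KRT4 over KRT13 was 0.37 after fusion, against 0.86 in controls. KRT7 over KRT19 was 0.24 after cytokinesis failure, against 0.40 in controls. Together, the 6 keratins of stratified epithelium made up 17.4% ± 0.259 of the members' summed TPM after fusion, 16.7% ± 0.495 after slippage and 14.7% ± 0.0900 after cytokinesis failure, against 17.7% ± 0.318 in controls. Of their summed CPM it was 21.4%, 20.3% and 18.1%, in the same order, against 21.9% in controls. The sum of all 10 was 3446 ± 109 TPM after fusion, 3523 ± 97.4 TPM after slippage and 3921 ± 47.1 TPM after cytokinesis failure, against 3470.4 ± 121 TPM in controls, with the cytokinesis failure libraries above every other one. In CPM that sum was 5776 ± 48.8 after fusion, 5823 ± 117 after slippage and 6092 ± 63.0 after cytokinesis failure, against 5643 ± 86.5 in controls. The fusion mean lay below the controls in TPM and above them in CPM, with overlapping libraries in both.

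**Figure D4:**
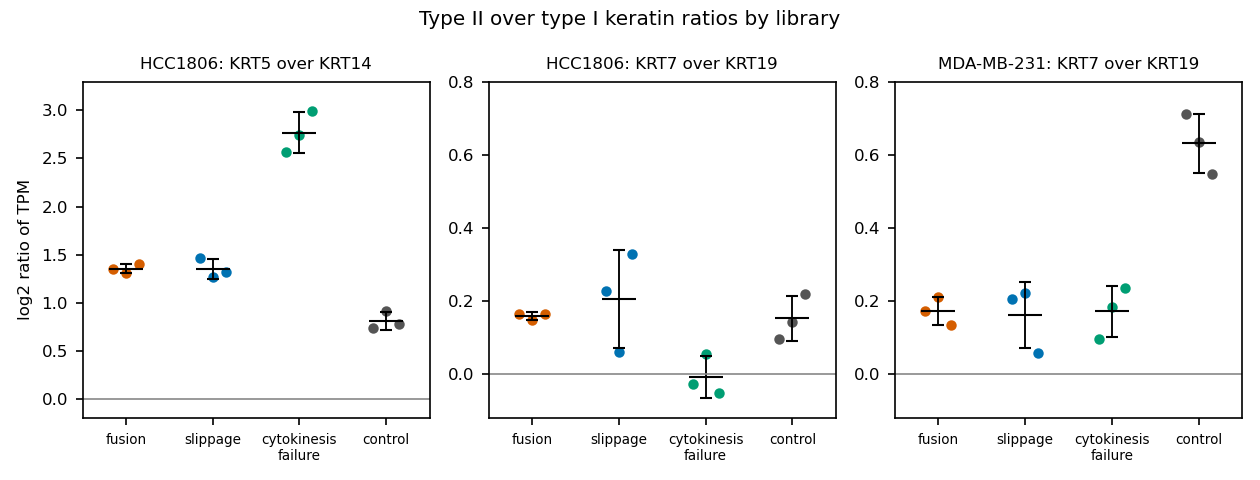
Log2 ratios of a type II to a type I keratin in TPM for each library, with lines for group means and bars for the SD (n = 3). The KRT5 to KRT14 ratio in HCC1806 is higher in all doubled libraries than in controls and highest after cytokinesis failure; the KRT7 to KRT19 ratio in MDA-MB-231 is lower in all doubled libraries than in controls.

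In MDA-MB-231, where only the 4 simple keratins among the members were expressed, every called change of a member against control was downward, and KRT7 was called in all 3 populations. KRT7 had 379, 382 and 392 CPM in fusion libraries, 481, 458 and 422 CPM in slippage libraries and 365, 414 and 433 CPM in cytokinesis failure libraries, against 566, 584 and 555 CPM in control libraries. All doubled libraries were below all controls, those of cytokinesis failure being the most spread. KRT7 fell by 0.56 ± 0.055 after fusion (edgeR adjusted p = 2.05e-10), 0.32 ± 0.054 after slippage (adjusted p = 7.6e-05) and 0.49 ± 0.055 after cytokinesis failure (adjusted p = 3.36e-08). With both noisier libraries left out, an alternative added after the data were seen, it fell by 0.28 after slippage (edgeR adjusted p = 1.11e-05) and 0.43 after cytokinesis failure (adjusted p = 5.40e-11).

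KRT18 had 594, 569 and 553 CPM in fusion libraries, 518, 485 and 501 CPM in slippage libraries and 501, 518 and 523 CPM in cytokinesis failure libraries, against 619, 625 and 613 CPM in control libraries. The doubled libraries were below every control, those of fusion closest to them. KRT18 fell by 0.30 ± 0.046 after slippage (edgeR adjusted p = 1.91e-05) and 0.27 ± 0.047 after cytokinesis failure (adjusted p = 0.000147). Without both noisier libraries these were -0.31 and -0.25 (edgeR adjusted p = 4.96e-07 and 2.90e-05). After fusion it stood at -0.11 ± 0.046 (edgeR adjusted p = 0.0839) and was called on log2(TPM + 1) (-0.23, adjusted p = 0.0142), a scale on which the median of all genes shifted by -0.10. KRT8 had 264, 248 and 295 CPM in fusion libraries, 333, 324 and 272 CPM in slippage libraries and 326, 327 and 325 CPM in cytokinesis failure libraries, against 336, 334 and 352 CPM in control libraries. KRT8 fell after fusion (-0.34 ± 0.064, edgeR adjusted p = 0.000169) and stood at -0.14 ± 0.063 after slippage (adjusted p = 0.213) and -0.06 ± 0.063 after cytokinesis failure (adjusted p = 0.659). Its libraries were below every control in all 3 populations, narrowly so in 2 of the slippage libraries and in cytokinesis failure.

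KRT19 was not called in any doubled MDA-MB-231 population. It had 283, 277 and 301 CPM in fusion libraries, 351, 330.2 and 341 CPM in slippage libraries and 287, 307 and 309.6 CPM in cytokinesis failure libraries, against 291, 316 and 319 CPM in control libraries. The slippage libraries were above every control, and those of the other routes overlapped them. The log2 fold change was -0.11 ± 0.055 after fusion (edgeR adjusted p = 0.192), 0.14 ± 0.054 after slippage (adjusted p = 0.12) and -0.03 ± 0.055 after cytokinesis failure (adjusted p = 0.817). The fusion difference was called on log2(TPM + 1), at -0.23 (adjusted p = 0.039). The log2 ratio of KRT7 to KRT19 in TPM was 0.17 ± 0.039 (SD, n = 3) after fusion, 0.16 ± 0.091 after slippage and 0.17 ± 0.070 after cytokinesis failure, against 0.63 ± 0.081 in controls. The 3 doubled populations overlapped in this ratio and lay below the controls. The log2 ratio of KRT8 to KRT18 in TPM was -1.26 ± 0.056 in controls. It was -1.49 ± 0.16 after fusion, narrowly below every control, and -1.06 ± 0.035 after cytokinesis failure, above every control. After slippage it was -1.10 ± 0.16 and overlapped the controls. The members summed to 933 ± 21.0 TPM after fusion, 1045 ± 23.8 TPM after slippage and 1027 ± 72.8 TPM after cytokinesis failure, against 1217 ± 30.5 TPM in controls, with no doubled library reaching a control.

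**Figure D5:**
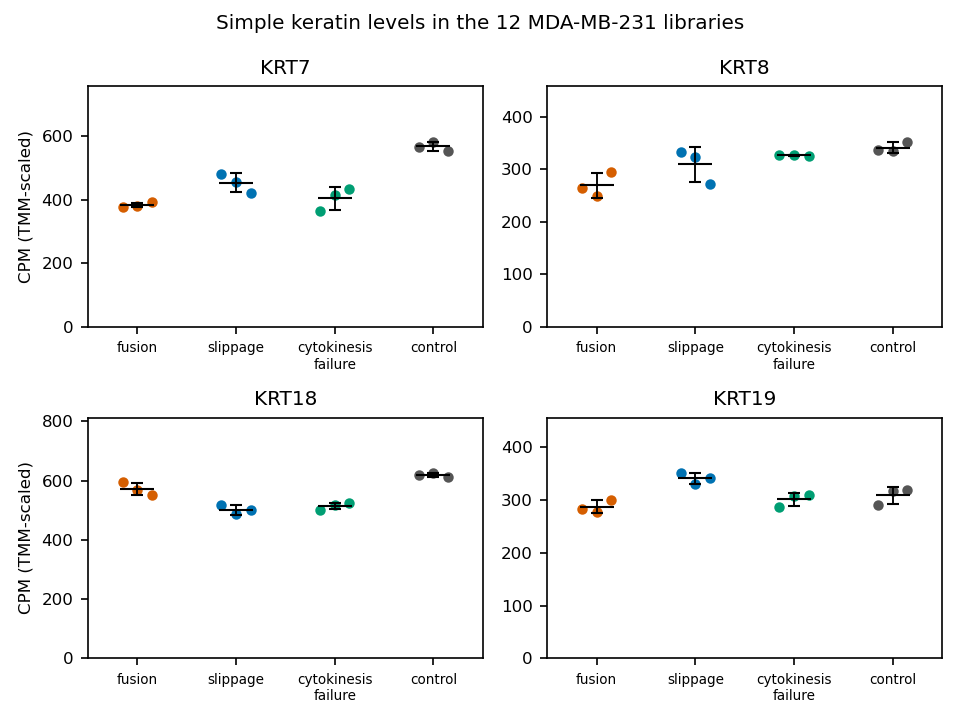
TMM-scaled CPM of KRT7, KRT8, KRT18 and KRT19 in the 12 MDA-MB-231 libraries, with points for libraries, lines for group means and bars for the SD (n = 3). All doubled libraries lie below the controls for KRT7 and KRT18, and KRT19 overlaps the controls after fusion and cytokinesis failure.

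Of the 4 members tested in MDA-MB-231, 0 rose and 2 fell after each route. Over all 11424 genes, 17.4% were called after fusion (9.34% higher and 8.11% lower), 6.18% after slippage (3.27% higher and 2.91% lower) and 4.64% after cytokinesis failure (2.29% higher and 2.35% lower). The members' median was -0.23 after fusion, -0.22 after slippage and -0.17 after cytokinesis failure, beside -0.0025, 0.0013 and -0.0017 over all genes tested, in the same order. After fusion edgeR called 1067 genes higher and 926 lower, and limma on log2(TPM + 1) 312 and 1394. Between routes, fused cells had less KRT7 (-0.24, edgeR adjusted p = 0.00149), KRT19 (-0.25, adjusted p = 0.000954) and KRT8 (-0.20, adjusted p = 0.0246) and more KRT18 (0.19, adjusted p = 0.00309) than slippage cells, where 17.1% of genes were called. KRT8 missed the threshold with DESeq2 (adjusted p = 0.0743), without fusion replicate 1 (adjusted p = 0.105) or 2 (adjusted p = 0.186) and without slippage replicate 1 (adjusted p = 0.166) or 2 (adjusted p = 0.134), and KRT18 missed it on log2(TPM + 1) (adjusted p = 0.292). Cells from cytokinesis failure had more KRT8 (0.28, edgeR adjusted p = 0.00139) and less KRT18 (-0.15, adjusted p = 0.0139) than fused cells, where 24.5% of genes were called; KRT18 missed the threshold on log2(TPM + 1) (adjusted p = 0.722) and without fusion replicate 1 (adjusted p = 0.0766). Between cytokinesis failure and slippage, where edgeR called 3.18% of genes, KRT7 (-0.16, adjusted p = 0.104) and KRT19 (-0.18, adjusted p = 0.0656) were not called, nor were KRT8 and KRT18. KRT7 gained a call without cytokinesis failure replicate 1 against fusion (edgeR adjusted p = 0.0395), where both noisier libraries left out gave 0.14 (adjusted p = 0.0212), and without slippage replicate 3 against slippage (adjusted p = 0.0354). On log2(TPM + 1), 308 genes were higher and 1130 lower in fusion against slippage (1039 and 914 by edgeR), 1950 and 586 in cytokinesis failure against fusion (1352 and 1443), and 8 and 60 in cytokinesis failure against slippage (123 and 240).

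KRT7 differed from control in opposite directions in the lines after each route, upward in HCC1806 and downward in MDA-MB-231. The difference of its fold changes, HCC1806 minus MDA-MB-231 in a fit of all 24 libraries, was 0.74 ± 0.062 for fusion (edgeR adjusted p = 2.89e-15), 0.46 ± 0.061 for slippage (adjusted p = 1.11e-07) and 0.71 ± 0.062 for cytokinesis failure (adjusted p = 1.09e-14). For KRT19 it was 0.28 ± 0.061 for fusion (edgeR adjusted p = 0.000652) and 0.42 ± 0.061 for cytokinesis failure (adjusted p = 3.03e-07), and -0.06 for slippage (adjusted p = 0.729). For KRT18 it was 0.27 ± 0.056 for slippage (edgeR adjusted p = 0.00069) and 0.23 ± 0.056 for cytokinesis failure (adjusted p = 0.00306), and -0.10 for fusion (adjusted p = 0.259). KRT8 was not called in any of them (0.19 for fusion, 0.22 for slippage and 0.14 for cytokinesis failure; edgeR adjusted p = 0.1, 0.0971 and 0.334 in that order), and gained a call for fusion on log2(TPM + 1) (adjusted p = 0.0495) and without MDA-MB-231 fusion replicate 3 (adjusted p = 0.0149), and for slippage without the filter on low counts (adjusted p = 0.0461) and without MDA-MB-231 slippage replicate 1 (adjusted p = 0.0253). Of all genes, 12% were called for fusion, 3.54% for slippage and 6.53% for cytokinesis failure. For fusion 688 were higher and 825 lower by edgeR, 872 and 487 on log2(TPM + 1), and 426 and 581 by DESeq2. For slippage these were 209 and 236 by edgeR, 83 and 184 on log2(TPM + 1), and 117 and 167 by DESeq2. For cytokinesis failure they were 416 and 404 by edgeR, 417 and 302 on log2(TPM + 1), and 207 and 308 by DESeq2. Without both noisier libraries the 5 differences called for slippage or cytokinesis failure ran from 0.21 (KRT18, edgeR adjusted p = 0.00424) to 0.64 (KRT7, adjusted p = 8.35e-20), and each was called. The keratins absent from MDA-MB-231 allow no such comparison.

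Besides the members, 46 keratin genes were measured, of which 8 were tested in HCC1806 and 5 in MDA-MB-231. In HCC1806, 0 were called after fusion, 1 rose after slippage (KRT4) and 3 rose after cytokinesis failure: KRT4, the suprabasal KRT10 (0.16, edgeR adjusted p = 0.0374) and the epithelial KRT80 (0.35 ± 0.085, adjusted p = 0.00154). Of all genes, 10.9% were called there after fusion, 3.33% after slippage and 17% after cytokinesis failure. KRT81, a hair keratin, was mainly an MDA-MB-231 transcript, with a log2 difference of -4.95 in HCC1806 controls against MDA-MB-231 controls. It had 141, 129 and 152 CPM in MDA-MB-231 fusion libraries, 308, 301 and 229 CPM in slippage libraries and 162, 236 and 230.1 CPM in cytokinesis failure libraries, against 228, 218 and 229 CPM in controls. It fell after fusion (-0.68 ± 0.16, edgeR adjusted p = 0.0229), where its libraries lay below all controls and 17.4% of all genes were called. KRT81 and KRT86 are near-identical, as are KRT6A and KRT6B, and their counts are uncertain where reads are shared. In the reference transcripts, 0 of 401 windows of 100 bases at the 3′ end of each member occurred exactly in a transcript of another gene. That check covered KRT6A and KRT6B. The 3′ ends of KRT81 and KRT86, which are no members, were not checked. Of 7 keratin pseudogenes, 0 passed the filter on low counts.

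The hemidesmosome genes, which anchor basal keratin filaments to the basement membrane, fell or were not called in HCC1806. Beside the list counts that follow, the shares of all genes called higher and lower in HCC1806 were 5.33% and 5.55% after fusion, 1.53% and 1.81% after slippage, and 8.37% and 8.63% after cytokinesis failure. In MDA-MB-231 they were 9.34% and 8.11%, 3.27% and 2.91%, and 2.29% and 2.35%. Of the 9 hemidesmosome genes tested, 0 rose and 6 fell after fusion, 0 and 4 after slippage, and 0 and 6 after cytokinesis failure, with medians of -0.22, -0.18 and -0.52. LAMB3, a laminin chain of the basement membrane, fell in all 3 (-0.49 ± 0.051, -0.50 ± 0.051 and -1.06 ± 0.052, in that order of routes). COL17A1, the transmembrane collagen of the hemidesmosome, fell after slippage (-0.38 ± 0.046) and cytokinesis failure (-0.59 ± 0.046). In MDA-MB-231, 2 of 9 rose and 1 fell after fusion, 3 and 0 after slippage, and 1 and 0 after cytokinesis failure; after fusion LAMB3 (0.53 ± 0.070) and LAMA3 (0.68 ± 0.18) rose and the integrin ITGA6 (-0.50 ± 0.055) fell. In desmosomes, the other anchor of keratin filaments, 0 of 13 were called in HCC1806 after fusion, 1 fell after slippage, and 1 rose and 1 fell after cytokinesis failure, the plakophilin PKP1 falling in both (-0.32 ± 0.094 and -0.91 ± 0.099) and the plakin DSP, which binds the filaments, rising (0.13 ± 0.040). In MDA-MB-231, 1 of 10 fell after fusion (DSG2, a desmosomal cadherin, -0.41 ± 0.078), 1 rose and 1 fell after slippage (DSP at 0.68 ± 0.12 and PKP4 at -0.38 ± 0.085), and 1 fell after cytokinesis failure (PKP4 at -0.28 ± 0.085). All these calls are edgeR adjusted p below 0.05.

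Among 19 epithelial transcription factors tested in HCC1806, 2 rose and 0 fell after fusion, 1 rose and 1 fell after slippage, and 2 rose and 4 fell after cytokinesis failure, where 10.9%, 3.33% and 17% of all genes were called in that order. The share after fusion is near that of all genes. ELF3, an epithelial ETS factor, rose in all 3 (0.77 ± 0.10, 0.42 ± 0.11 and 1.01 ± 0.095) and the receptor NOTCH3 after fusion (0.28 ± 0.084) and cytokinesis failure (0.61 ± 0.078), where SOX9 fell (-1.30 ± 0.29). TP63, the basal cell factor, stood at 0.35 ± 0.12 after fusion (edgeR adjusted p = 0.0504). In MDA-MB-231, 3 of 10 rose and 1 fell after fusion, 3 and 0 after slippage, and 2 and 0 after cytokinesis failure, where 17.4%, 6.18% and 4.64% of all genes were called, with the ETS factor EHF (1.20 ± 0.10, 0.64 ± 0.11 and 0.53 ± 0.11) and SOX9 (0.38 ± 0.077, 0.29 ± 0.076 and 0.25 ± 0.077) rising in each. Of 14 keratin-binding and filament-regulating genes in HCC1806, 0 were called after fusion, 1 rose and 1 fell after slippage, and 2 rose and 1 fell after cytokinesis failure; the 14-3-3 protein SFN, which binds KRT17 in mouse keratinocytes, fell after slippage (-0.30 ± 0.053) and cytokinesis failure (-0.50 ± 0.053), and the small heat shock protein HSPB1 rose (0.21 ± 0.051 and 0.28 ± 0.050). In MDA-MB-231, 2 of 13 rose and 3 fell after fusion, 0 and 3 after slippage, and 0 and 2 after cytokinesis failure, with FLG, the filament-aggregating protein of cornified skin, lower in each (-2.34 ± 0.18, -1.38 ± 0.15 and -1.15 ± 0.15).

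Cornified envelope genes, expressed in terminally differentiating keratinocytes, gave 2 higher and 2 lower of 11 tested in HCC1806 after fusion, 0 and 0 after slippage, and 0 and 5 after cytokinesis failure, where 10.9%, 3.33% and 17% of all genes were called in that order. SPRR1B fell after fusion (-1.04 ± 0.23) and cytokinesis failure (-1.47 ± 0.23), while ANXA1 (0.26 ± 0.045) and CSTA (0.31 ± 0.071) rose after fusion. In MDA-MB-231, 2 of 5 rose and 1 fell after fusion, 2 and 0 after slippage, and 1 and 0 after cytokinesis failure, where 17.4%, 6.18% and 4.64% of all genes were called, EMP1 rising in each (0.27 ± 0.045, 0.20 ± 0.045 and 0.27 ± 0.045). Of the other intermediate filament genes, 2 of 8 rose and 1 fell in HCC1806 after fusion, 0 and 0 after slippage, and 0 and 2 after cytokinesis failure; in MDA-MB-231 the counts were 2 and 1 of 10, 0 and 0, and 2 and 0. LMNA, a nuclear lamin, rose in fused HCC1806 cells (0.15 ± 0.047), and the neuronal filament gene INA fell there (-2.05 ± 0.34).

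Some markers of other cell types also differed from control. The summed CPM of 5 mesenchymal markers in HCC1806 was 31.3 to 38.2 in fusion libraries, 46.9 to 51.8 in slippage libraries and 49.3 to 53.9 in cytokinesis failure libraries, against 63.8 to 65.1 in control libraries. KRT14 was also highest in controls, but it was lowest after cytokinesis failure and the sum after fusion. KRT13, KRT7 and KRT19 had their lowest means in controls. Most of the mesenchymal sum was CDH2, which fell after fusion (-0.71 ± 0.11) and was not called after slippage (-0.26) or cytokinesis failure (-0.15). VIM was at or near 0 throughout, and the matrix protein FN1 fell after fusion (-1.26 ± 0.19), slippage (-0.74 ± 0.17) and cytokinesis failure (-0.68 ± 0.17). Fibroblast markers summed to at most 6.38 CPM in any HCC1806 library, with PTPRC, the pan-leukocyte marker, at most 1 count. The 5 immune markers there summed to 34.3 to 37.3 CPM after fusion, 28.6 to 31.3 after slippage and 24.3 to 29.3 after cytokinesis failure, against 34.7 to 37.0 in controls. Nearly all of it was CD68, a lysosomal protein, which fell after cytokinesis failure (-0.45 ± 0.11) and was not called after the other routes. In MDA-MB-231, immune markers summed to 91.2 to 110.4 CPM in fusion libraries, 110.3 to 113.3 CPM in slippage libraries and 107.7 to 124.4 CPM in cytokinesis failure libraries, against 68.3 to 77.0 CPM in controls; most of this was CD68, with PTPRC at most 3 counts. The mesenchymal sum, mostly VIM, was 3138 to 3202 CPM in fusion libraries, 3090.3 to 3315 CPM in slippage libraries and 3182 to 3522 CPM in cytokinesis failure libraries, against 3024 to 3073 CPM in controls. It was above every control in each doubled population, while KRT7, KRT8 and KRT18 were below their controls. KRT19 was above its controls after slippage and overlapped them after the other routes. FN1 there fell after fusion (-0.74 ± 0.080) and rose after slippage (0.59 ± 0.069) and cytokinesis failure (0.80 ± 0.069). The part of these markers in the keratin differences was not tested.

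Genes with the pattern most like each keratin were ranked by the root mean square difference of centred log2 CPM over the 12 libraries of a line, as a description. For KRT14 in HCC1806 these were the phosphatase DUSP4 (0.215), the glycoprotein STC2 (0.229) and the aldo-keto reductase AKR1C3 (0.254), against a median of 0.674 over 10657 genes. For KRT6A they were the collagen-binding integrin ITGA2 (0.128), the calcium-binding S100A14 (0.146) and the hyaluronan synthase HAS3 (0.161), against a median of 0.572. KRT13 was nearest to the complex I subunit NDUFV1 (0.0684), TRAPPC5 (0.0746) and TRMT2B (0.0795), with a median of 0.262, and KRT19 to TMEM14A (0.0489), STMN1 (0.0492) and NDRG3 (0.0566), with a median of 0.217. For KRT7 in MDA-MB-231, CD55 (0.111), TACO1 (0.112) and NAA10 (0.114) were nearest among 10714 genes, with a median of 0.288. Ranked on log2(TPM + 1), the genes nearest to KRT14 were TNFAIP3, STC2 and DHRS9. On that scale NFIB (0.0258) came before TMEM14A (0.0490) and STMN1 for KRT19. SLC4A11 (0.108) entered for KRT7 in MDA-MB-231 in place of NAA10, and KRT6A and KRT13 had the same 3 genes.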

How the data were processed

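TAGseq, a 3′ tag RNA sequencing method, was run on 24 libraries, 3 biological replicates in each of 8 groups. STAR and Salmon, without versions, and GRCh38 are named per the submitters' processing notes; annotation, strand and molecular identifiers are not given in the sources used here. Estimated counts per gene (4.41% of them not whole) and TPM were deposited as separate tables. Counts were rounded and fitted per line in edgeR 4.0.16 (R 4.3.3; filterByExpr, TMM scaling, robust quasi-likelihood tests; all 24 libraries for differences between lines), with calls at an adjusted p below 0.05 over all genes tested. CPM are TMM-scaled; standard errors derive from the F statistic. Total counts per library limit the precision of low genes.

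The members and lists were chosen with earlier results of these data known. From each list, up to 3 tested genes of smallest adjusted p per comparison could be named. Alternatives were DESeq2 1.42.0, RLE factors, no filter, a filter of 5 CPM in 3 libraries, limma 3.58.1 on log2(TPM + 1) and log2(TPM + 0.1), leaving out each library, and a replicate block; leaving out both noisier MDA-MB-231 libraries was added after the data were seen. Replicate numbers were not treated as pairing the samples in the main fit.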

Additional observations from a re-analysis of the deposited data

Results flagged for a closer look

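Differences between the lines under the same route were tested in a fit of all 24 libraries (edgeR), as the fold change in HCC1806 minus that in MDA-MB-231, and 7 of the 12 tests on the simple keratins were called, where 12% of all genes were called for fusion, 3.54% for slippage and 6.53% for cytokinesis failure. KRT7 differed by 0.74 for fusion, 0.46 for slippage and 0.71 for cytokinesis failure, higher than control in HCC1806 and lower than control in MDA-MB-231 in each. KRT19 differed by 0.28 for fusion and 0.42 for cytokinesis failure, rising in HCC1806 in both and not called in MDA-MB-231. KRT18 differed by 0.27 for slippage and 0.23 for cytokinesis failure, falling in MDA-MB-231 in both and not called in HCC1806. With 1 derived population per route and line, the line and the population cannot be told apart.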

How the results depend on the processing

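Of 94 keratin results, 56 were called. Of these, 0 reversed and 9 lost their call under at least 1 of the alternatives run; of the others, 9 gained a call and 7 changed sign under at least 1. DESeq2 called fewer genes: in HCC1806 648 for fusion, 142 for slippage and 975 for cytokinesis failure against control, 528 for fusion against slippage, and 1096 and 298 for cytokinesis failure against fusion and slippage. In MDA-MB-231 it called 1197, 343, 302, 1210, 1779 and 173 in the same order, and 1007, 284 and 515 for the line differences by fusion, slippage and cytokinesis failure. On log2(TPM + 1), limma called 706 and 88 genes for HCC1806 fusion and slippage against control, 507 for fusion against slippage and 372 for cytokinesis failure against slippage. In MDA-MB-231 it called 169 and 178 for slippage and cytokinesis failure against control and 68 for cytokinesis failure against slippage, and 267 for the slippage line difference. On log2(TPM + 0.1) these were 714, 84, 505 and 349, then 161, 175 and 65, then 189, with 1267 for HCC1806 cytokinesis failure against control. Both scales called 4 members in MDA-MB-231 fusion against control and 1 in cytokinesis failure against fusion. In MDA-MB-231 cytokinesis failure against fusion, log2(TPM + 0.1) shifted the median of all genes by 0.12. The cause was not tested.

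Reversed values, all of results not called, were KRT18 in HCC1806 cytokinesis failure against control (0.0095 on both TPM scales), KRT8 (0.068 on both) and KRT18 (0.070 on both) in cytokinesis failure against slippage, and KRT8 in MDA-MB-231 cytokinesis failure against slippage (-0.012 with both noisier libraries left out, an alternative added after the data were seen). Leaving out 1 library gave 217 to 284 genes for HCC1806 slippage against control (230 without control replicate 1, 252 without slippage replicate 2, 217 without slippage replicate 3) and 421 to 620 for cytokinesis failure against slippage (476 without slippage replicate 2, 421 without cytokinesis failure replicate 1). In MDA-MB-231 it gave 370 to 604 for slippage against control (398, 370 and 409 without control replicates 1, 2 and 3, 442 and 456 without slippage replicates 2 and 3), 318 to 506 for cytokinesis failure against control (318, 319 and 346 without control replicates 1, 2 and 3, 353 without cytokinesis failure replicate 2) and 212 to 302 for cytokinesis failure against slippage (221 without slippage replicate 2, 212 without cytokinesis failure replicate 3). Members called ran from 1 to 3 in MDA-MB-231 cytokinesis failure against fusion and from 0 to 1 against slippage. Signs changed in HCC1806 for KRT7 in fusion against slippage (-0.0033 to 0.081), KRT17 in cytokinesis failure against fusion (-0.033 to 0.084), and KRT13 (-0.0048 to 0.084), KRT8 (-0.051 to 0.024) and KRT18 (-0.024 to 0.0055) in cytokinesis failure against slippage, and for KRT8 in the same comparison of MDA-MB-231 (-0.0065 to 0.13).

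With a block for the replicate number, edgeR called 1236 genes in HCC1806 fusion against control and 372 in slippage against control. For cytokinesis failure against control it called 1941. Without the block these were 1247, 382 and 1950. In MDA-MB-231 the block gave 1854, 585 and 460 in the same order, against 1993, 706 and 530 without it. The block changed no member's call. Deviations of same-numbered replicates correlated at -0.19 to 0.088. The own number matched best for 3 of 3 replicates in MDA-MB-231 cytokinesis failure against fusion and between the controls of the 2 lines. It did so for 0 to 2 in the other comparisons. Such low values over 3 libraries per group cannot tell whether the numbers pair the samples. KRT6B, with at most 2 counts in any library, was too low to compare at this depth. Taken in CPM in place of TPM, 40 of the group means of keratin ratios and shares moved by more than 1 SD and 4 did not. Sums were not part of this count. Identity between keratin proteins was not run.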
